A study of Mus musculus with 8 samples.

Results

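The p53-linked genes Ccng1, Polk, Sesn2, Trim7, Trp53, Mdm2, Trp53inp1, Zmat3 and Phlda3 were followed in lower molars of mouse embryos that lack Jagged1 in the epithelium. These 9 genes were taken by symbol from the 43629 Ensembl identifiers counted in each embryo, and all 9 were among the 17129 genes that passed the filter on low counts. They were selected on their mutant and control counts in these same embryos, as genes raised in mutant molars. Their difference between the groups is therefore given as a description, with no test. Trp53 and Mdm2 do not bear out that label, since they overlapped between the groups with fold changes close to 1. Trp53inp1 and Phlda3 overlapped as well, and the log2 fold change of Phlda3 was 0.43 with all embryos and 0.20 without mutant K14J26.

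RNA was sequenced from 4 control embryos (J3, J5, J6 and J7) of genotype Jagged1 fl/fl and from 4 mutant embryos (K14J26, K14J28, K14J29 and K14J30) of genotype K14:cre; Jagged1 fl/fl, all at E18.5. Both groups carry the floxed Jagged1 alleles, and only the mutants are labelled with the Cre transgene, which the keratin 14 promoter drives in epithelial cells. The left and right lower molars of an embryo were pooled into 1 library, so each library holds epithelium and mesenchyme together. In such whole molars, fewer cells of a type and less RNA per cell cannot be told apart. Sex, litter and batch are not given in the labels. The study's methods call the controls wild-type littermates of the mutants, which differs from the genotype given above. They do not say which embryos shared a litter.

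The totals ran from 17327224 to 29792467 counts per embryo, and 3 counts correspond to 0.0998 to 0.166 CPM (counts scaled to a common library size after normalisation by TMM, the trimmed mean of M-values). Jag1 lay between 95.2 and 104 CPM in the controls and between 34.0 and 57.1 CPM in the mutants. The markers of ameloblasts (the enamel-forming epithelial cells), of epithelium and of odontoblasts (the dentin-forming cells) were detected in every embryo. The 5 enamel genes Amelx, Ambn, Enam, Mmp20 and Klk4 took 0.0576% to 0.336% of all counts in the controls. Among the mutants the share was lowest in K14J28 (0.365%), followed by K14J30 (0.980%), K14J29 (2.501%) and K14J26 (9.64%). Transcripts of 6 skeletal muscle genes summed to 327 CPM in control J6 and 149 CPM in control J7, and to at most 13.2 CPM in the other embryos. Only mutants K14J28 (1928 CPM) and K14J29 (1467 CPM) had Xist above 1.09 CPM. The TMM factor was 0.843 in K14J26 and 0.969 to 1.043 in the other embryos. Mitochondrial genes took 2.96% to 3.26% of the counts in the controls and 2.17% to 2.89% in the mutants, so every mutant was below every control, and the part of this difference in the results was not tested.

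The transcription factor p53, encoded by Trp53 in the mouse, is held at a low level by the ubiquitin ligase Mdm2 and is stabilised when DNA is damaged or a cell is otherwise stressed. Once stable, it binds paired copies of a short half-site and raises genes for cell cycle arrest, DNA repair, apoptosis and metabolism, and Mdm2 itself, which closes a feedback loop. Its activity is set mostly at the protein level, so the amount of Trp53 mRNA is not a measure of it. In the molar at this stage, epithelial cells leave the cell cycle and differentiate into ameloblasts, starting at the cusps.

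The promoter windows of the members are shown because p53 acts through such sequences. RefSeq windows of 300 bases (250 before and 50 after an annotated start, GRCm38.p6) were found for 7 of the 9 members, with 9 windows in all, and none was matched for Trp53inp1 and Zmat3. The p53 half-site consensus, which reads the same on both strands, was searched without mismatch, and so was a tandem of 2 half-sites with no spacer and at most 2 mismatches. An exact half-site was present in 4 of the 9 windows, those of Ccng1, Trp53, Mdm2 and an internal start of Polk, and in 8.36% of all 32851 windows. The tandem was present in the Ccng1 window, with 1 mismatch, and in 0.798% of all windows. Capitals mark these matches, and the second Trim7 window is shown because this gene had the largest fold change of the 9 and no match. A match describes the letters in the window and not a bound site. Sequence outside the windows was not searched, so the lack of a match does not mean that a gene lacks such a site.

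Ccng1, chr11:40755237-40755536, minus strand: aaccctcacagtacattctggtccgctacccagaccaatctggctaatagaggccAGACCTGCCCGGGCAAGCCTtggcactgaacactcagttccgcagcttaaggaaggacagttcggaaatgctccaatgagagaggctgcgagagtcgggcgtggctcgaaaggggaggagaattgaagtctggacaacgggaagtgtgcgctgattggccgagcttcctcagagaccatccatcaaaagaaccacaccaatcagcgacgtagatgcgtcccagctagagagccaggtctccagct
Mdm2, chr10:117710709-117711008, minus strand: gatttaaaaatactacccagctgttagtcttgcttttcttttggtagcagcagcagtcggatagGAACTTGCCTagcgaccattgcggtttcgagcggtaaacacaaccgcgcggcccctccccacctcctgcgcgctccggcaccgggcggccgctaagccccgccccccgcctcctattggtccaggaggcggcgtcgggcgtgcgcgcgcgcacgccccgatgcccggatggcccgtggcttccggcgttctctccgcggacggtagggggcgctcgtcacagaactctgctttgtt
Trp53, chr11:69580109-69580408, plus strand: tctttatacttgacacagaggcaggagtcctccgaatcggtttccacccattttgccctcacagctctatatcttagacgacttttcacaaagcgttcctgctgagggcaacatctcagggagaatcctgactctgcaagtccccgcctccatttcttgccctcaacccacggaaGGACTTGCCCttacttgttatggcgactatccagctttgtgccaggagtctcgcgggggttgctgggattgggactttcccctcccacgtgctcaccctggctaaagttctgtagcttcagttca
Polk, internal start, chr13:96519138-96519437, minus strand: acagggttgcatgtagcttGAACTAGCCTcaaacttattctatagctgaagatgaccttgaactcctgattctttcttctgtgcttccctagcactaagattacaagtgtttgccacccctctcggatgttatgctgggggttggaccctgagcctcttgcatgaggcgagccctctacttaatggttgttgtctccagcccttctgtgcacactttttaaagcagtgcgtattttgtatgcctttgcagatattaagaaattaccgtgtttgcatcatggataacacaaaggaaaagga
Trim7, chr11:48837221-48837520, plus strand: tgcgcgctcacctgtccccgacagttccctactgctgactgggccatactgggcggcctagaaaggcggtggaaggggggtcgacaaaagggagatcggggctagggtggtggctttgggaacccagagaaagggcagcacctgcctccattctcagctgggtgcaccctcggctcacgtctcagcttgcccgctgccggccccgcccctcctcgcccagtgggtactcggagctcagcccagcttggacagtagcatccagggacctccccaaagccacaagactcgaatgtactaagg

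In the Ccng1 window the tandem begins 195 bases before the annotated start, at chr11:40755462-40755481, and its second half-site is the exact one. The Mdm2 half-site begins 186 bases and the Trp53 half-site 75 bases before the start. The other windows of Polk and Trim7 and those of Sesn2 and Phlda3 held neither form.

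The mutant values lay above all control values for 5 of the 9 members (Trim7, Polk, Ccng1, Sesn2 and Zmat3) and overlapped with them for the other 4. Over all tested genes, 12.6% had every mutant above every control, and the count among the members follows from how they were chosen. Among all tested genes, 9.52% were called higher and 6.61% lower in the mutants at an adjusted p under 0.05 (quasi-likelihood test of edgeR with Benjamini-Hochberg adjustment). By the criteria of the study (an unadjusted p no larger than 0.05 together with a fold change of 0.5 or more, whose scale its methods do not give and which is read here as log2, either way) these shares were 8.33% and 5.85%, and no count of members by them is given. The median log2 fold change of the members was 0.43, beside 0.01 over all tested genes.

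**Figure D1:**
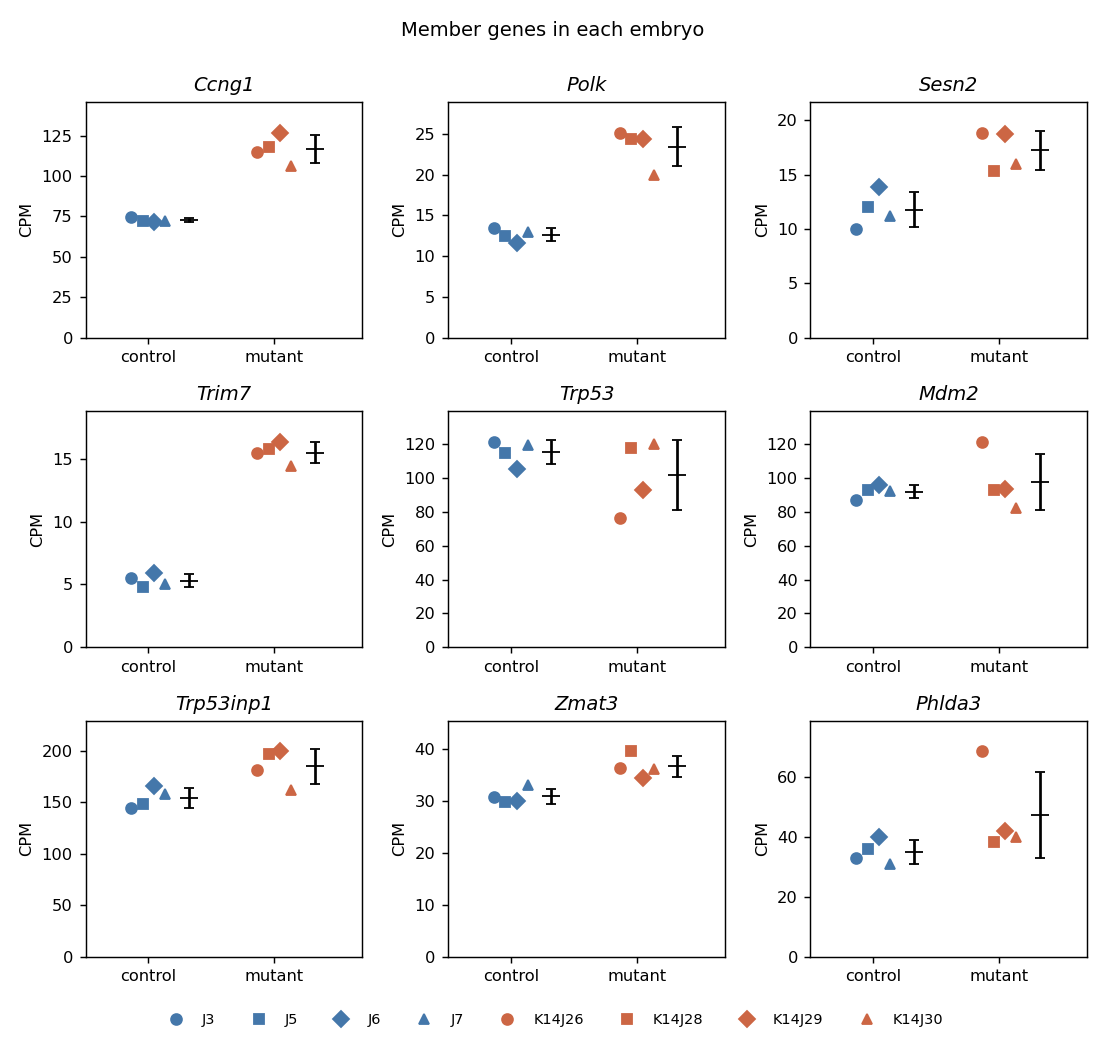
Level of each member gene in CPM (vertical axes, each from 0) in the 4 control and 4 mutant embryos; a symbol stands for an embryo, and the bars give the mean ± SD of a group. The groups are apart for Trim7, Polk, Ccng1, Sesn2 and Zmat3, and for Phlda3 1 mutant, K14J26 at 68.4 CPM, stands above the others.

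Ccng1 encodes cyclin G1, a p53 target that brings a phosphatase to Mdm2 (ENSMUSG00000020326, chromosome 11 of GRCm38 from 40748552 to 40755311, minus strand, protein coding). Its level was 74.6, 72.1, 71.9 and 72.5 CPM in the controls J3, J5, J6 and J7. The mutant values, for K14J26, K14J28, K14J29 and K14J30, were 115, 118, 127 and 106 CPM. The controls were within a few percent of each other (coefficient of variation 1.71%), and the lowest mutant was 1.42 times the highest control. With group means of 72.8 ± 1.25 and 117 ± 8.53 CPM (SD, n = 4), the log2 fold change was 0.68, with a standard error of 0.06. The 2 highest mutants, K14J29 and K14J28, were those with high Xist, and with Xist as a covariate it was 0.60.

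Trim7 encodes a ubiquitin ligase of the tripartite motif family (ENSMUSG00000040350, chromosome 11 from 48826140 to 48852209, plus strand, protein coding). It had 5.48, 4.78, 5.91 and 5.06 CPM in the controls J3, J5, J6 and J7, and 15.5, 15.8, 16.3 and 14.4 CPM in the mutants in the order above. All 4 mutants sat within a narrow band (coefficient of variation 5.21%), and the lowest of them was 2.44 times the highest control. The means of 5.31 ± 0.494 and 15.5 ± 0.808 CPM (SD, n = 4 per group) gave a log2 fold change of 1.55 (standard error 0.10), the largest of the members. K14J29 and K14J28 were the highest here too, and with Xist as a covariate the value was 1.499. This gene shares 491 exon bases (6.46% of its own) with the antisense gene Gm16170 and 140 with Gm12184 on the opposite strand. Gm16170 had at most 0.817 CPM in any embryo, and Gm12184 had 3.79 to 4.74 CPM in the controls and 2.87 to 3.88 CPM in the mutants. The library kit does not mark strand, so reads on the shared bases cannot be assigned to either gene.

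Polk encodes DNA polymerase kappa, which copies past damaged bases (ENSMUSG00000021668, chromosome 13 from 96480690 to 96542579, minus strand, protein coding). The controls J3, J5, J6 and J7 had 13.4, 12.5, 11.6 and 13.0 CPM and the mutants K14J26, K14J28, K14J29 and K14J30 had 25.2, 24.3, 24.4 and 19.9 CPM. The first 3 mutants were nearly level, and K14J30 was lower than them but still 1.48 times the highest control. From 12.6 ± 0.786 to 23.5 ± 2.38 CPM (SD, n = 4 per group), the log2 fold change was 0.89 (standard error 0.10).

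Sesn2 encodes sestrin 2, a stress-induced inhibitor of mTOR signalling that senses leucine (ENSMUSG00000028893, chromosome 4 from 132492032 to 132510501, minus strand, protein coding). Its values were 10.02, 12.1, 13.9 and 11.2 CPM in J3, J5, J6 and J7 and 18.9, 15.4, 18.7 and 16.0 CPM in K14J26, K14J28, K14J29 and K14J30. The gap between the groups was small, with the lowest mutant at 1.11 times the highest control. The log2 fold change was 0.55 (standard error 0.12), from 11.8 ± 1.64 to 17.2 ± 1.82 CPM (SD, n = 4 each). Within each group, the embryo with the larger share of enamel counts tended to the higher value: J6 was the highest control, and K14J26 and K14J29 the highest mutants.

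Zmat3 encodes a zinc finger protein that binds RNA (ENSMUSG00000027663, chromosome 3 from 32334792 to 32366014, minus strand, protein coding). It was at 30.8, 29.8, 29.97 and 33.1 CPM in the controls and 36.4, 39.6, 34.5 and 36.2 CPM in the mutants, in the same order of embryos. The groups were apart by little, the lowest mutant being 1.04 times the highest control. The log2 fold change was 0.25 (standard error 0.07).

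Trp53inp1 encodes a nuclear protein that acts in p53-dependent cell death and in autophagy (ENSMUSG00000028211, chromosome 4 from 11156431 to 11174379, plus strand, protein coding). The controls J3, J5, J6 and J7 had 144, 148, 165 and 158 CPM, and the mutants K14J26, K14J28, K14J29 and K14J30 had 181, 197, 199 and 162 CPM. The groups overlapped because K14J30 lay below control J6. The log2 fold change was 0.26 (standard error 0.08), and the 2 highest embryos, K14J28 and K14J29, were those with high Xist. With Xist as a covariate the fold change was 0.15 on the log2 scale, and whether sex had a part was not tested.

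Phlda3 encodes a small protein that keeps the kinase Akt from the membrane (ENSMUSG00000041801, chromosome 1 from 135766119 to 135769136, plus strand, protein coding). Its values were 32.8, 35.8, 39.9 and 31.0 CPM in the controls J3, J5, J6 and J7. Mutants K14J26, K14J28, K14J29 and K14J30 had 68.4, 38.3, 41.9 and 39.9 CPM. A single mutant, K14J26, was far above the rest, and the lowest mutant was below the highest control. The log2 fold change of 0.43 (standard error 0.18) was 0.20 without K14J26.

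Trp53 itself (ENSMUSG00000059552, chromosome 11 from 69580359 to 69591873, plus strand, protein coding) had 121, 115, 105 and 120 CPM in J3, J5, J6 and J7 and 76.5, 118, 93.2 and 120 CPM in K14J26, K14J28, K14J29 and K14J30. The 2 mutants with the highest share of enamel counts, K14J26 and K14J29, were below all controls, and the other 2 were within the control range. The log2 fold change was -0.18 (standard error 0.14), and it was -0.06 without K14J26. The pseudogene Trp53-ps resembles Trp53 in sequence and was listed at 0 counts in all 8 embryos. How reads with several matches were counted is not given in the sources used here.

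Mdm2 (ENSMUSG00000020184, chromosome 10 from 117688875 to 117710758, minus strand, protein coding) had 87.1, 92.9, 95.8 and 92.5 CPM in the controls and 121, 93.2, 93.6 and 82.4 CPM in the mutants, in the same order. Only K14J26 was above the control range, and K14J30 was below it. The log2 fold change was 0.08 (standard error 0.11), and it was -0.04 without K14J26. The gene of the feedback loop thus did not differ by more than the spread between the mutants, whose coefficient of variation was 17.1% against 3.95% in the controls.

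Per length, the members divided into a high and a low tier. In the controls, CPM per kilobase of exon was 28.5 ± 1.78 for Trp53, 23.8 ± 1.49 for Trp53inp1, 22.4 ± 2.504 for Phlda3, 20.7 ± 0.355 for Ccng1 and 18.1 ± 0.715 for Mdm2 (SD, n = 4). The low tier was Sesn2 at 3.39 ± 0.471, Zmat3 at 2.70 ± 0.132, Polk at 2.28 ± 0.142 and Trim7 at 0.699 ± 0.0650 CPM per kilobase. In this order the control values of Trp53inp1 and Phlda3, of Phlda3 and Ccng1, and of Sesn2 and Zmat3 overlapped, and those of the other neighbours did not. In the mutants Ccng1 had the highest mean of the 9, at 33.2 ± 2.43 CPM per kilobase, and Polk, at 4.22 ± 0.429, was above Zmat3, at 3.21 ± 0.184, while Trim7 remained the lowest at 2.04 ± 0.106. The length is the union of all annotated exons, so a gene whose molar transcripts are shorter is understated.

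The mutants differed widely in enamel gene expression, and the members divided by how they went with it. In mutant K14J28, whose share of enamel counts was close to that of control J6, Trim7 was 2.98 times, Polk 1.93 times and Ccng1 1.62 times the control mean. In K14J26, with the largest share, the same ratios were 2.91, 1.99 and 1.58. These 3 genes thus had similar levels in the mutants at both ends of the enamel range. For Phlda3 the ratio was 1.10 in K14J28 and 1.96 in K14J26, and for Trp53 it was 1.02 and 0.663. Zmat3 had 1.28 in K14J28 and 1.18 in K14J26. Among the mutants, K14J30 was the lowest for 5 of the 9 members.

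**Figure D2:**
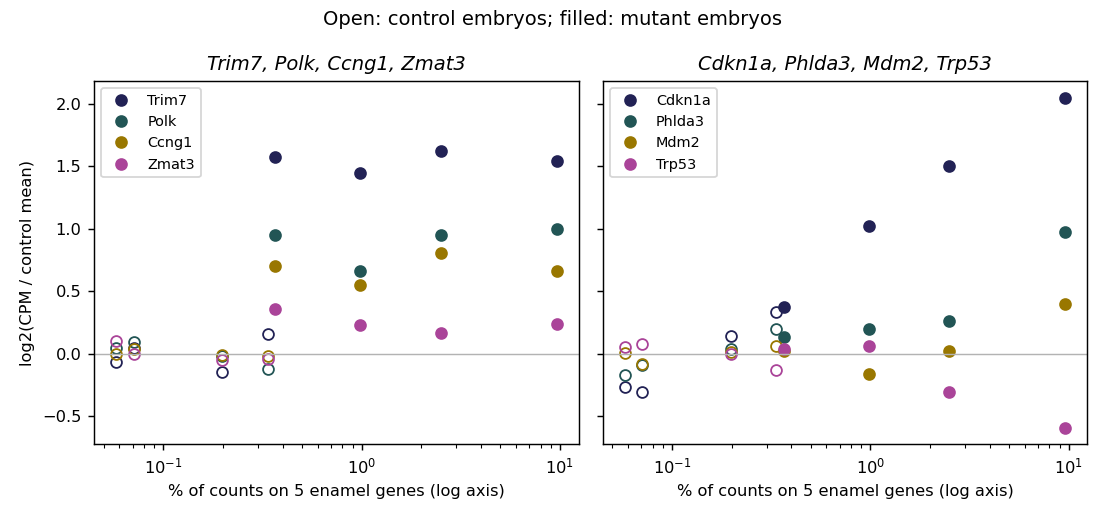
Ratio of each embryo to the control mean (vertical axis, log2) against the share of counts on the 5 enamel genes (horizontal axis, percent, log scale) for 7 members and Cdkn1a; open circles are control and filled circles mutant embryos. Trim7, Polk and Ccng1 lie above the controls in all 4 mutants, from 0.365% to 9.64% of enamel counts, with Polk lower in K14J30 (1.58 times the control mean) than in the other 3, while Cdkn1a and Phlda3 are highest and Trp53 lowest in K14J26.

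With the enamel score (mean log2 CPM of the 5 enamel genes) of each embryo as a covariate, the log2 fold change was 1.51 for Trim7, 0.86 for Polk, 0.67 for Ccng1, 0.35 for Zmat3, 0.24 for Trp53inp1 and 0.24 for Sesn2. It turned to -0.18 for Phlda3, to -0.21 for Mdm2 and to 0.26 for Trp53. The score was at most 6.87 in the controls and at least 6.94 in the mutants, so the groups did not overlap on the covariate and the fit cannot fully tell score and genotype apart. With each embryo left out in turn, the log2 fold change ran from 1.49 to 1.60 for Trim7, from 0.85 to 0.96 for Polk, from 0.64 to 0.72 for Ccng1 and from 0.48 to 0.63 for Sesn2.

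**Figure D3:**
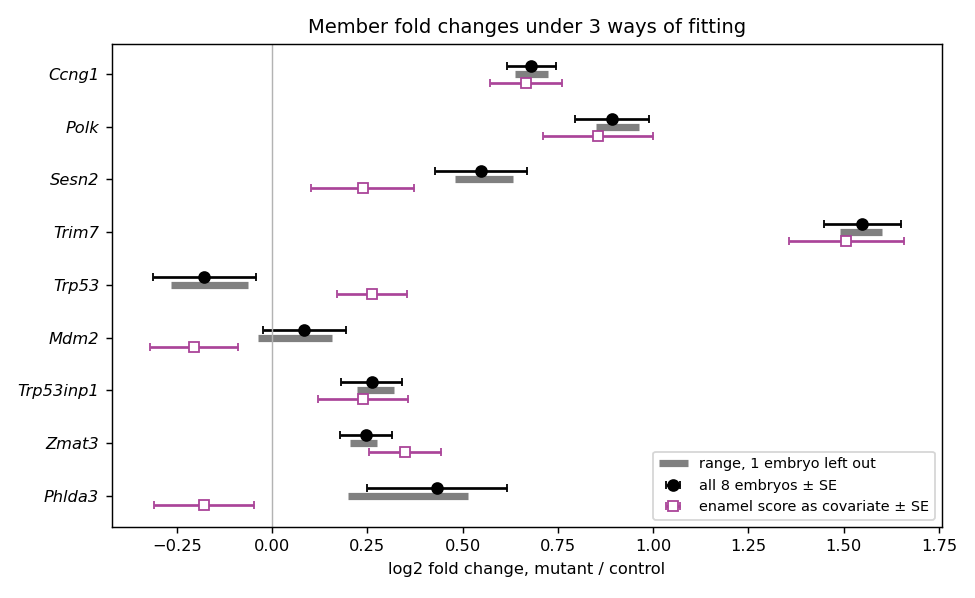
Log2 fold change of each member, mutant over control (horizontal axis), with all 8 embryos (black, ± SE), as the range with 1 embryo left out (grey) and with the enamel score as a covariate (open squares, ± SE). The 3 values are close for Trim7, Polk and Ccng1, and the covariate moves Phlda3, Mdm2 and Trp53 across 0.

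The 2 genes whose log2 CPM followed a member most closely over the 8 embryos were taken as a description, knowing that the embryos fall into 2 groups and share their libraries. For Trim7 they were Ptpn3 and Helz (Pearson r = 0.993 for both), for Ccng1 Dusp11 and Nabp1 (r = 0.994 and 0.993) and for Polk Senp7 and Ccdc93 (r = 0.996 and 0.994). For Sesn2 they were Phex, a gene of phosphate control in odontoblasts and bone cells, and Loxl4 (r = 0.993 and 0.987). Phlda3 was followed by Wdr13 and Anxa11 (r = 0.992 and 0.988), Zmat3 by Sepsecs and Ap1g1 (r = 0.982 and 0.979) and Trp53inp1 by Sgk1 and Fam171b (r = 0.987 and 0.970). Trp53 was followed by Rangap1 and Ppm1j (r = 0.990 and 0.986), and Mdm2, with the lowest values, by Nr6a1 and Tmem68 (r = 0.972 and 0.969). None of these genes is a member.

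Beyond the members, 69 other known p53 target genes were read from the same fit, of which 68 were tested. Of these, 12 were higher and 5 lower in the mutants at an adjusted p under 0.05 (edgeR), and 51 did not pass. That is 17.6% higher and 7.35% lower, beside 9.52% and 6.61% of all tested genes, and the median log2 fold change of the list was 0.11, beside 0.01. The higher count was 3 without control J3, without control J7 or without mutant K14J29, 5 without control J5 and 6 without both K14J26 and K14J29. The lower count was 1 without J5, J7 or K14J29, 2 without J3 or J6, and 3 without K14J30 or without both K14J26 and K14J29. The counts with the enamel score as a covariate were 4 higher and 0 lower (edgeR; 27 of the 68 had an unadjusted p under 0.05), and 3 of the 17 called genes were still called. The list was chosen with earlier results of these embryos known and is not independent evidence of a direction.

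Among the 10 cell cycle genes, 2 rose and 1 fell (20% and 10%, beside 9.52% and 6.61% of all tested genes). Cdkn1a, the inhibitor through which p53 halts the cycle, rose from 227 ± 49.9 to 585 ± 277 CPM (SD, n = 4 each; log2 fold change 1.36, standard error 0.32, adjusted p = 0.0247, edgeR). Its values in K14J26, K14J28, K14J29 and K14J30 were 941, 295, 643 and 460 CPM, against 184 to 287 CPM in the controls. It went with the enamel genes, and with the enamel score as a covariate its log2 fold change was 0.11 (adjusted p = 0.580, edgeR). Sfn (14-3-3 sigma, which holds cells before mitosis) rose with a log2 fold change of 0.42 (adjusted p = 0.00885), and Plk3, a stress kinase, fell by 0.92 on the log2 scale (adjusted p = 0.0112). Both passed in all 8 fits that left out 1 embryo. Neither passed with the enamel score as a covariate, at 0.36 for Sfn and -0.59 for Plk3 (adjusted p = 0.0660 and 0.158, edgeR). Btg2 and Gadd45a, both targets in arrest and repair, had log2 fold changes of 0.14 and 0.49 with adjusted p values of 0.338 and 0.312 (edgeR). Gadd45a was at 34.5 CPM in K14J26 and 10.7 to 15.7 CPM in the other mutants, and its log2 fold change was 0.017 without K14J26 and -0.71 with the enamel score as a covariate.

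Of the 15 apoptosis genes, 4 rose and 1 fell (26.7% and 6.67%, beside 9.52% and 6.61% of all tested genes), and with the enamel score as a covariate Pmaip1 and Apaf1 still passed. Pmaip1, the mitochondrial death factor Noxa, rose from 0.948 ± 0.178 to 2.61 ± 1.07 CPM (log2 fold change 1.46, adjusted p = 0.0196, edgeR; SD, n = 4 each), with 15 to 120 counts per embryo. Unlike Cdkn1a it was highest in K14J28, at 3.99 CPM, and its log2 fold change with the enamel score as a covariate was 2.12 (adjusted p = 0.0310, edgeR). Its 2 highest mutants, K14J28 and K14J29 (2.84 CPM), were those with high Xist, and with Xist as a covariate the log2 fold change was 0.85; whether sex had a part was not tested. Eda2r, a death receptor family member, rose by a log2 fold change of 0.77, Shisa5 by 0.75 and Apaf1, the scaffold that activates caspases, by 0.32 (adjusted p = 0.0210, 0.0374 and 0.0354, edgeR). Siva1 fell by 0.58 on the log2 scale (adjusted p = 0.0420). With the enamel score as a covariate it was at -0.15 (adjusted p = 0.666, edgeR). Shisa5 was at 99.1 CPM in K14J28, within the control range of 82.8 to 105 CPM, and its log2 fold change with the enamel score as a covariate was -0.01 (adjusted p = 0.964, edgeR). Under that covariate Eda2r was at 0.86 (adjusted p = 0.109, edgeR) and Apaf1 at 0.52 (adjusted p = 0.0334, edgeR) on the log2 scale. Of the 8 fits that left out 1 embryo, Cdkn1a, Pmaip1 and Eda2r passed in 4, Apaf1 and Siva1 in 3 and Shisa5 in 2. The direct effectors Bax and Bbc3 (Puma) had log2 fold changes of 0.01 and 0.24 (standard errors 0.08 and 0.19, adjusted p = 0.933 and 0.414). Bbc3 was at 0.08 without K14J26 and at -0.27 with the enamel score as a covariate.

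In DNA repair and nucleotide supply, 1 of 6 genes passed the test (16.7% higher and 0% lower, beside 9.52% and 6.61% of all tested genes): Ddb2, which recognises damage by ultraviolet light, rose from 21.6 ± 0.914 to 25.3 ± 0.310 CPM (log2 fold change 0.22, adjusted p = 0.0455, edgeR; SD, n = 4 each). With any 1 embryo left out it no longer passed. Among the 6 feedback genes Ppm1d, the phosphatase that switches p53 signalling off, fell by 0.28 on the log2 scale (adjusted p = 0.0313), and no gene rose (0% higher and 16.7% lower, beside the same shares of all tested genes). Ppm1d passed in 2 of the 8 fits that left out 1 embryo, and with the enamel score as a covariate it was at -0.20 on the log2 scale (adjusted p = 0.288, edgeR).

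The metabolic and stress targets held 4 rises and 1 fall among 16 tested genes (25% and 6.25%, beside 9.52% and 6.61% of all tested genes). Cpt1c, a carnitine palmitoyltransferase, rose by a log2 fold change of 0.64 (adjusted p = 0.00682, edgeR), and it passed in all 8 fits that left out 1 embryo and, alone among these 5 genes, with the enamel score as a covariate. The iron reductase gene Steap3, the xylulose reductase gene Dcxr and the mTOR inhibitor gene Ddit4 rose by 0.72, 0.51 and 0.51 (adjusted p = 0.0188, 0.0221 and 0.0182), and Prkab1, a subunit of the energy sensor AMPK, fell by 0.32 on the log2 scale (adjusted p = 0.0174). Under that covariate Cpt1c was at 0.40 on the log2 scale (adjusted p = 0.0469, edgeR). Dcxr was then at 0.49, Steap3 at 0.47, Ddit4 at 0.29 and Prkab1 at -0.19. Of the 15 genes for membrane and secreted proteins, 1 rose and 1 fell (6.67% each, beside 9.52% and 6.61% of all tested genes): Kitl, the ligand of the receptor Kit, rose with a log2 fold change of 1.05 (adjusted p = 0.0127), and Epha2, an ephrin receptor, fell by 0.35 on the log2 scale (adjusted p = 0.0442). Kitl no longer passed with the enamel score as a covariate, at 0.41 on the log2 scale (adjusted p = 0.0813, edgeR). Epha2 was then at -0.57 (adjusted p = 0.0517, edgeR). Rap2b of this list, not called without the covariate, passed with it, at 0.53 (adjusted p = 0.0436, edgeR). With 1 embryo left out, Kitl passed in 8 of 8 fits, Steap3 in 5, Dcxr, Ddit4 and Prkab1 in 4 and Epha2 in 2.

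**Figure D4:**
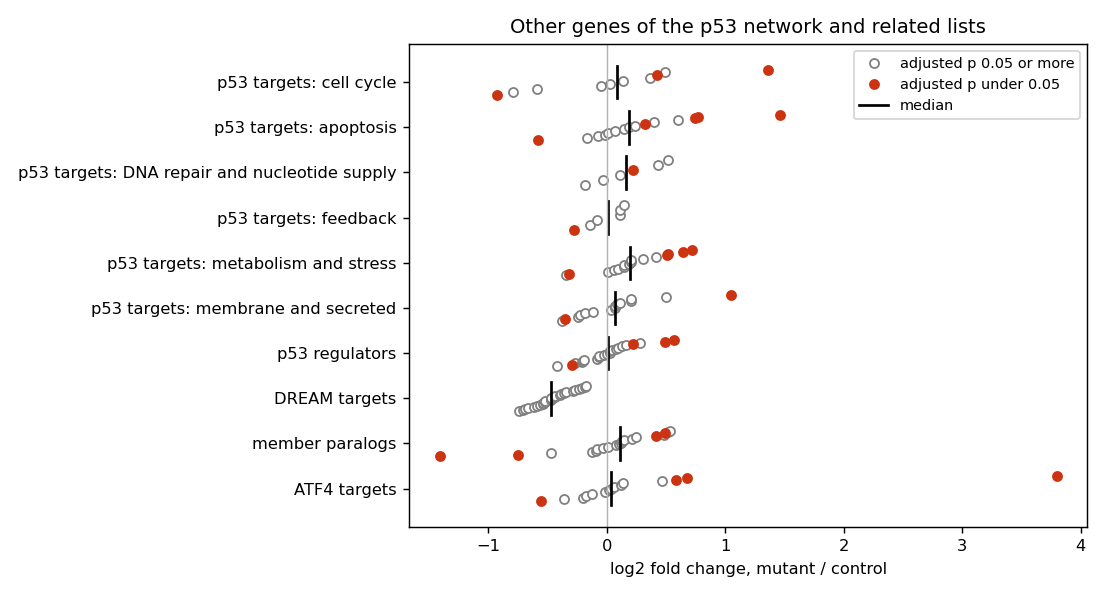
Log2 fold change, mutant over control (horizontal axis), of the tested genes in each list of the p53 network and in the related lists; red points passed an adjusted p under 0.05 (edgeR), open points did not, and the bar is the median. Of the 6 lists of p53 targets, 4 hold calls in both directions, DNA repair holds 1 higher call and feedback 1 lower call, and all 26 DREAM targets lie below 0 without a call in this fit of all 8 embryos, whereas all 26 were above 0 with the enamel score as a covariate and 4 without K14J26.

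Of the 23 regulators of p53, 22 were tested, 3 were higher and 1 was lower (13.6% and 4.55%, beside 9.52% and 6.61% of all tested genes). With the enamel score as a covariate 0 passed in edgeR, and 6 had an unadjusted p under 0.05. The genes called without it were then at 0.42 (Mdm4), 0.39 (Ppp1r13b), 0.22 (Ube4b) and -0.11 (Trim28) on the log2 scale. Mdm4, the partner of Mdm2 that blocks p53, rose from 199 ± 7.51 to 280 ± 26.5 CPM (0.49 ± 0.08 SE on the log2 scale, adjusted p = 0.00914, edgeR; SD, n = 4 each). It had 294 CPM in K14J28 and 309 CPM in K14J26, and passed in all 8 fits that left out 1 embryo. Ppp1r13b, which steers p53 towards death genes, rose by a log2 fold change of 0.56 and Ube4b, a ubiquitin ligase that acts on p53, by 0.22 (adjusted p = 0.00768 and 0.0274). Trim28 fell by 0.30 on the log2 scale (adjusted p = 0.0328). Of the 8 fits that left out 1 embryo, Ppp1r13b passed in 8, and Ube4b and Trim28 each in 3. Cdkn2a, whose product Arf restrains Mdm2, did not pass the filter and had no more than 8 counts per embryo.

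The paralogs of the members, 21 genes of which 20 were tested, included 2 higher and 2 lower genes (10% each, beside 9.52% and 6.61% of all tested genes). With the enamel score as a covariate 0 paralogs passed in edgeR, and 4 had an unadjusted p under 0.05. The genes called without it were then at 0.42 (Mdm4), 0.21 (Trim11), -0.68 (Phlda1) and -0.63 (Phlda2) on the log2 scale. Their standard errors were 0.11, 0.11, 0.21 and 0.59 in this order. Mdm4 and Trim11 rose (Trim11 by a log2 fold change of 0.41, adjusted p = 0.0218, edgeR), and Phlda1 and Phlda2 fell by 0.75 and 1.41 on the log2 scale (adjusted p = 0.0157 and 0.0427). Phlda2 had only 2 to 27 counts per embryo. Of the 8 fits that left out 1 embryo, Trim11 passed in 5, Phlda1 in 7 and Phlda2 in 3. Sesn1 and Sesn3, the sister genes of Sesn2, had log2 fold changes of 0.01 and 0.24 (standard errors 0.08 and 0.14, adjusted p = 0.949 and 0.250). For Sesn3, K14J26 had 42.9 CPM and the other mutants 28.2 to 30.8 CPM, and the value was 0.085 without K14J26 and -0.13 with the enamel score as a covariate. For Ccng2, the sister of Ccng1, it was -0.13 (standard error 0.06, adjusted p = 0.170), for Trp53inp2 0.53 (adjusted p = 0.0588) and for Polh 0.52 (adjusted p = 0.190). Trp63 and Trp73, the p53 relatives of which Trp63 marks the epithelium, did not pass, at 0.21 and 0.49 on the log2 scale (adjusted p = 0.0546 and 0.0543, edgeR), and for both every mutant was above every control. For Trp73, K14J26 had 87.7 CPM and the other mutants 53.7 to 59.6 CPM. Its log2 fold change was 0.31 without K14J26 and 0.07 with the enamel score as a covariate. The differences between each member and its paralog were not tested.

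The p53 pathway also lowers cell division genes through Cdkn1a and the DREAM repressor complex. None of the 26 genes on this list passed at an adjusted p under 0.05 with edgeR, while 8 of them (30.8%, beside 34.9% of all tested genes) had an unadjusted p under 0.05 and DESeq2 called 5 of them lower. The edgeR count was 8 without K14J28 and 1 without K14J26. All 26 had negative log2 fold changes in the fit of all 8 embryos, with a median of -0.47, beside 0.01 over all tested genes, but the direction depends on the fit. With the enamel score as a covariate all 26 were positive (median 0.39; edgeR called 0, and 11 had an unadjusted p under 0.05), and without K14J26 4 were positive and the median was -0.25. The values were lowest in K14J26: Mki67 had 151 CPM there and 482, 282 and 376 CPM in K14J28, K14J29 and K14J30, against 352 to 432 CPM in the controls. Top2a had 135, 465, 284 and 360 CPM in the 4 mutants and 357 to 435 CPM in the controls. Both genes overlapped between the groups (log2 fold change -0.27 and -0.36, adjusted p = 0.530 and 0.411).

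Markers of other cell types were set beside these results, and their part in them was not tested. The sum of the 5 ameloblast markers ran from 557 to 3252 CPM in the controls and from 3500 to 114298 CPM in the mutants. That of the 6 epithelium markers ran from 4654 to 5368 and from 5483 to 8078 CPM. Krt5 alone took 2647 to 3011 CPM of it in the controls and 2979 to 4096 CPM in the mutants. Of these 6 markers, 4 had positive and 2 negative log2 fold changes, from -0.51 to 0.96. Only 1 of them was called higher at an adjusted p under 0.05 (edgeR). The odontoblast sum ran from 4352 to 8246 and from 7628 to 23824 CPM, and the osteoblast sum from 305 to 373 and from 436 to 650 CPM. The osteoblast markers did not run alike. Ibsp was 447 CPM in K14J28, 141 to 169 CPM in the other mutants and 164 to 189 CPM in the controls. Bglap was 31.3 CPM in K14J28, 73.5 to 201 CPM in the other mutants and 12.7 to 25.3 CPM in the controls. The endothelium sum was 240 to 274 CPM in the controls and 193 to 241 CPM in the mutants. For the macrophage and leukocyte markers the ranges were 63.3 to 83.8 and 54.8 to 158 CPM, for the erythroid markers 879 to 1296 and 678 to 1658 CPM, and for the Schwann and nerve markers 12.2 to 22.3 and 11.2 to 14.9 CPM.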

How the data were processed

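Total RNA from the pooled lower molars of each embryo was sequenced as single-end, poly A selected libraries made with a kit that does not mark strand. Per the labels, the authors aligned reads to GRCm38 with STAR and deposited raw counts per Ensembl gene for each embryo. The counter is named featureCounts in the labels and GenomicRanges in the study's methods, and the handling of strand and of reads with several matches is not given in the sources used here. Symbols and positions were taken from GENCODE M21 by identifier (42548 of 43629 matched), and promoter sequences from RefSeq by symbol.

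A gene entered the fit (17129 did) where 2 or more of the 4 embryos in one of the groups held 10 counts or more. edgeR 4.0.16 in R 4.3.3 was used for its quasi-likelihood test after TMM scaling, with Benjamini-Hochberg adjustment over all of them and no covariate. CPM used the scaled library size. The fit was tested on simulated counts of 16812 genes. It called 84.1% of genes changed by a log2 fold change of 1 and 96.8% of those changed by 2. Of its calls, 9.09% were genes that had not been changed. The changed genes were drawn from those well above the count filter, so recovery among genes with few counts was not measured. Counts were drawn separately for each gene, so shifts that many genes share in 1 embryo were not simulated. The alternatives were other scalings, DESeq2 1.42.0, other filters, the enamel score or Xist as a covariate, the call criteria of the study (unadjusted p no larger than 0.05 and a fold change of 0.5 or more, read here as log2 in either direction) and leaving out each embryo. Leaving out K14J26 and K14J29 together was added after seeing the data.

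The members and lists were chosen with earlier results of these data known. Genes named in the text were the 9 members, up to 5 rises and 5 falls among the called genes of each list, a set named irrespective of change (among them Cdkn1a, Bax, Bbc3, Pmaip1, Mdm4, Trp63, Sesn1, Ccng2, Mki67 and Top2a), genes overlapping a member, and the 2 tested genes most correlated with each member (log2 CPM with a prior count of 2). The pseudogene Trp53-ps was added later. Each embryo is a separate animal, and replicates of a group differed by more than sampling noise (chi-square per degree of freedom 7.17 to 298.7 over the 12 pairs).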

Additional observations from a re-analysis of the deposited data

Results flagged for a closer look

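In 2 of the 58 groups of 4 embryos checked, 1 embryo stood apart from the other 3 by more than the 95% critical value for the ratio of gap to range. Chance does so in about 1 in 20 groups. Among the mutants, Polk was 19.9 CPM in K14J30, below the other 3 mutants (gap over range 0.841), and still above all controls. Phlda3 was 68.4 CPM in K14J26, above the other 3 mutants (gap over range 0.883), in the embryo with the largest share of enamel counts, and the part of the enamel share in this value was not tested.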

How the results depend on the processing

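Across the 17 alternatives, the log2 fold change of Ccng1, Polk, Sesn2, Trim7, Trp53inp1 and Zmat3 kept its sign. With library size only it was 0.58 for Ccng1, 0.16 for Trp53inp1, 0.15 for Zmat3 and 0.31 for Phlda3, with Xist as a covariate 0.15 for Trp53inp1 and 0.68 for Phlda3, and with the enamel score 0.24 for Sesn2. It reversed for Trp53 (0.26 with the enamel score as a covariate, 0.041 without K14J26 and K14J29), for Phlda3 (-0.18 with the enamel score) and for Mdm2 (-0.21 with the enamel score, -0.030 with library size only, -0.073 without K14J26 and K14J29, and -0.037 without K14J26 to 0.16 without K14J30 when 1 embryo was left out). The library size scaling moves the median of all genes to -0.09. The cause of these changes was not tested.

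Over all tested genes, 1631 were higher and 1133 lower. Higher calls were 864 with library size only, 186 with the enamel score and 747 without K14J26 and K14J29, and lower calls were 1718 with DESeq2, 112 with the enamel score and 570 without K14J26 and K14J29. Leaving out 1 embryo gave 250 (without K14J29) to 2479 (without K14J28) higher and 170 to 1845 lower calls at these same embryos. Of the 17 other p53 target genes called, 3 were still called with the enamel score, 13 with library size only, 10 with Xist and 17 with DESeq2. Among these targets 4 were higher and 0 lower with the enamel score, 6 and 3 without K14J26 and K14J29, and 3 lower by the criteria of the study, with 3 to 15 higher and 1 to 5 lower over the fits that left out 1 embryo. For the p53 regulators, higher calls were 0 with the enamel score and 1 by the criteria of the study, and lower calls were 0 with library size only, with the enamel score, with Xist and by these criteria, 2 with 10 counts in all 8 embryos, and 3 with upper-quartile scaling or DESeq2. Leaving out 1 embryo gave 2 to 3 higher and 0 to 4 lower regulators, with 0 lower without J3, J5, J6, J7 or K14J29, 2 without K14J30 and 4 without K14J28. DREAM targets had 5 lower calls with DESeq2 and 6 by the criteria of the study, and 0 to 8 lower over the fits that left out 1 embryo. The paralogs had 1 higher with library size only, 5 with DESeq2, 0 with the enamel score, 4 with Xist and 1 by the criteria of the study, and 1 lower with library size only, without the filter, with 10 counts in all 8 embryos or with Xist and 0 with the enamel score. Leaving out 1 embryo gave 1 to 5 higher paralogs (1 without J3, J7 or K14J29, 4 without K14J26, 5 without K14J28) and 0 to 2 lower (0 without J3, 1 without J5, J6, J7 or K14J29). ATF4 targets had 2 lower calls with library size only or DESeq2 and 0 with the enamel score, and 1 to 3 higher (1 without K14J29) and 0 to 3 lower (0 without J3, J5 or K14J29, 3 without K14J26) with 1 embryo left out. No paired analysis was possible because the groups share no replicate numbers in the labels.

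Enamel score and Xist run with the genotype in part. Trim7, with 99 to 475 counts per embryo, was the member with the fewest counts.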

Other observations

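Sesn2 is also known as a target of ATF4, the transcription factor of the integrated stress response, and 15 further genes of that response were read from the same fit. Of these, 3 rose and 1 fell at an adjusted p under 0.05 (edgeR), and 11 did not pass. The called shares were 20% and 6.67%, beside 9.52% and 6.61% of all tested genes. Chac1, which degrades glutathione, rose from 0.828 ± 0.327 to 11.3 ± 7.91 CPM (SD, n = 4 each; log2 fold change 3.80, standard error 0.56, adjusted p = 0.00841, edgeR). Its mutant values were 22.1, 3.66, 11.9 and 7.76 CPM in K14J26, K14J28, K14J29 and K14J30, in the order of their share of enamel counts, and the part of that share was not tested. With the enamel score as a covariate, its log2 fold change was 1.82 (adjusted p = 0.0192). Vldlr, a lipoprotein receptor, and Nupr1, a stress-induced nuclear protein, rose by 0.68 and 0.59 on the log2 scale (adjusted p = 0.0252 and 0.0140), and Atf3, a stress-induced transcription factor, fell by 0.55 on the log2 scale (adjusted p = 0.0179). Atf4 and Ddit3 (the identifier with more counts of its 2) did not pass, at 0.06 and -0.17 on the log2 scale (adjusted p = 0.524 and 0.444, edgeR). For Ddit3, K14J26 had 14.9 CPM and the other mutants 9.14 to 10.6 CPM. Its log2 fold change was -0.34 without K14J26 and -0.63 with the enamel score as a covariate (adjusted p = 0.0598, edgeR). With the enamel score as a covariate, Vldlr was at 0.09 (adjusted p = 0.502), Nupr1 at 0.57 (adjusted p = 0.106) and Atf3 at -0.51 (adjusted p = 0.174) on the log2 scale. Of the 8 fits that left out 1 embryo, Vldlr passed in 4, Atf3 in 5, Nupr1 in 7 and Chac1 in 8. The median of the list was 0.04, beside 0.01 over all tested genes.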
